A study of Mus musculus with 8 samples.

Results

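The receptor genes for interleukin 12 (IL-12), IL-18 and IL-33 were measured by RNA sequencing in sorted natural killer (NK) cells. The set held 10 genes of the 45706 in the tables, chosen by symbol: the IL-12 receptor genes Il12rb1 and Il12rb2 with their signalling factor Stat4, the IL-18 receptor genes Il18r1 and Il18rap with the ligand gene Il18, the IL-33 receptor gene Il1rl1 (which encodes ST2), the IL-1 receptor gene Il1r1, the accessory chain gene Il1rap, and Myd88. Of these, 9 had enough counts to be tested among 14006 genes, and Il18 did not. BALB/c mice had been inoculated under the skin with CT26_β2m-/- cells, a colorectal carcinoma line of the mouse without β2-microglobulin and so without MHC class I at its surface. Libraries titled tuNK (NK cells from the tumour, 4) were compared with libraries titled spNK (NK cells from the spleen, 4), and all 8 came from hosts with this tumour. In all 8 samples the tissue tag and source name give the other tissue than the title, so every direction below rests on the titles. The labels give no age, no sort markers and no statement that replicates are separate mice, so the spread behind each p-value is that between libraries and may be technical.

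IL-12 binds a receptor of 2 chains, whose associated kinases TYK2 and JAK2 activate STAT4. IL-18, IL-33 and IL-1 bind members of the IL-1 receptor family, each of which pairs with an accessory chain (IL-18RAP for IL-18, IL-1RAP for IL-33 and IL-1) and signals through the adaptor MyD88 to NF-κB. In NK cells, IL-12 and IL-18 together are the classical stimulus for interferon-γ. ST2 exists as a membrane receptor and as a shorter soluble form that captures IL-33.

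Library totals ran from 38745733 to 53886933 estimated counts. NK markers were present in both groups, where the mean of Ncr1 (NKp46) was 1468 CPM (counts per 1000000 counts, TMM-scaled) for spNK and 312.3 CPM for tuNK. Both groups also held RNA of other cells. Summed markers were higher in spNK for B cells (400 to 1700 CPM, against 53 to 68.4 CPM in tuNK), macrophages (316 to 545 against 68.4 to 77.1 CPM) and dendritic cells (184 to 442 against 44.4 to 61.3 CPM). By contrast, 15 markers of fibroblasts and mesenchymal tumour cells summed to 96.8 to 161 CPM in spNK and 3250 to 4910 CPM in tuNK, with all 15 higher. In spNK most of that sum was Thy1 alone, with a mean of 100.8 CPM beside 128 CPM for the sum. Epithelial tumour cell markers (8 genes) summed to 1.22 to 10 CPM in spNK and 47.7 to 69.2 CPM in tuNK. Of 6 tested, 4 were higher and 2 not called. The geometric mean of 32 genes expressed across leukocytes stood at 31.2 ± 4.25% of the spNK level in tuNK (SD, n = 4). In such bulk samples, fewer cells of a type and less RNA per cell cannot be told apart. Each log2 fold change, tuNK minus spNK with its standard error, is therefore also given after scaling every library to those 32 genes (leukocyte-scaled), which moved the median of all genes by 1.69.

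Several of these genes sit side by side, and neighbours moved in opposite directions. Some of their start regions are printed here, with that of Il12rb2 from another chromosome. On chromosome 1 of GRCm38, all on the plus strand, Il1r1 spans 40225080 to 40317257, Il1rl1 40429570 to 40465415, Il18r1 40465552 to 40500854 and Il18rap 40515362 to 40551705. Only 136 bases separate the annotated end of Il1rl1 from the start of Il18r1. RefSeq promoter windows (GRCm38.p6, 250 bases before to 50 after a start) were found for 9 of the 10 genes, 14 windows in all, and 5 are shown 5′ to 3′. They are the distal and the proximal start of Il1rl1, the internal start of Il1r1, the most downstream start of Il18r1, and Il12rb2 (minus strand). Capitals mark matches to a GATA motif (AGATAA), a GC box (GGGCGG) or a STAT motif (TTCNNNGAA), searched on both strands.

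Il1rl1 distal start, chr1:40429320-40429619: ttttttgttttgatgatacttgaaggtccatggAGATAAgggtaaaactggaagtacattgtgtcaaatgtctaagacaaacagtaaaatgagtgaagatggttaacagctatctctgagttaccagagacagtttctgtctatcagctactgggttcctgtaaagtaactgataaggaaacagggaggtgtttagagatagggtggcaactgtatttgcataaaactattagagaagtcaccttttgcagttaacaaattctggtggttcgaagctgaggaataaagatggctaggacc
Il1rl1 proximal start, chr1:40439379-40439678: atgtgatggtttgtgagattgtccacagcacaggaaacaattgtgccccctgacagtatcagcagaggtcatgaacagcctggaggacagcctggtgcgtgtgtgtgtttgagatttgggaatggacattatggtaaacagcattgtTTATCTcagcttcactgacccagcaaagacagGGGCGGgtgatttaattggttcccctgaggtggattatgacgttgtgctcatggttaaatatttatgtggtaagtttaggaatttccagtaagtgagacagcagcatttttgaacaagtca
Il1r1 internal start, chr1:40266336-40266635: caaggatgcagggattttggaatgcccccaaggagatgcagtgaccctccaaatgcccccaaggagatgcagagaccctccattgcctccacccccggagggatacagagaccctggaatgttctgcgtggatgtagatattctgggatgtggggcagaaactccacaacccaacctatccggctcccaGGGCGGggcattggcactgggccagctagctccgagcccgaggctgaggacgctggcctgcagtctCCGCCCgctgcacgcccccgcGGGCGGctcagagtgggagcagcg
Il18r1, chr1:40465756-40466055: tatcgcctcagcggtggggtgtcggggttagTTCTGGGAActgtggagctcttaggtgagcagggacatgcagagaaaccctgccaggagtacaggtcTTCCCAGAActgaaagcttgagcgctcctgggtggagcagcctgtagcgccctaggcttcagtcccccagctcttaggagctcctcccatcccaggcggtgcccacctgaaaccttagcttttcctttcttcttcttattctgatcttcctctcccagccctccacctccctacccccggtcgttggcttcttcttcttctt
Il12rb2, chr6:67376139-67376438: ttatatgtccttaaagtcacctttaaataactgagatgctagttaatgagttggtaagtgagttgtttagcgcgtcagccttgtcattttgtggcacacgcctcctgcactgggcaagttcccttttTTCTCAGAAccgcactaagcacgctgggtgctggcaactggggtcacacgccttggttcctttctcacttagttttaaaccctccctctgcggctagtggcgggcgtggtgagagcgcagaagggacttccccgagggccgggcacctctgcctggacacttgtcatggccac

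Each Il1rl1 window held 1 GATA match, and the proximal one also held 1 GC box. The Il1r1 window held 3 GC boxes and no GATA match. The Il18r1 window held 2 STAT matches and the Il12rb2 window held 1, while the single Il18rap window held none of the 7 motifs searched. For Il18r1 and Il1r1 the windows shown were those with matches. The other 2 Il18r1 windows, the distal Il1r1 window, both Stat4 windows and the Il18 window also held none. The Myd88 window held 1 STAT, 1 T-box and 1 GC box match and the Il1rap window held 4 GC boxes, and neither window is shown. Among 32817 promoter windows of the same length, 11.2% held the GATA motif, 35.6% the GC box and 8.29% the STAT motif. The other motifs were AP-1 (TGANTCA, in 7.81% of windows), T-box (TCACACC, 3.98%), ETS (CCGGAAG, 8.86%) and κB (1.63%), and none of them matched in the 5 windows shown. No marked matches overlapped, and a match describes letters, not binding.

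All 9 tested genes changed between the groups, in both directions. By edgeR's quasi-likelihood test, adjusted by Benjamini and Hochberg's method, 3 were called higher (Il12rb1, Il1rl1 and Il1r1) and 6 lower in tuNK, at an adjusted p under 0.05. That test called 69.6% of all genes tested, 35.6% higher and 34% lower, so a call by itself does not set these genes apart. After leukocyte scaling 4 were higher, 3 lower and 2 not called, beside 78.5% higher and 6.32% lower among all genes. The sizes and the order of levels therefore carry the description.

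**Figure D1:**
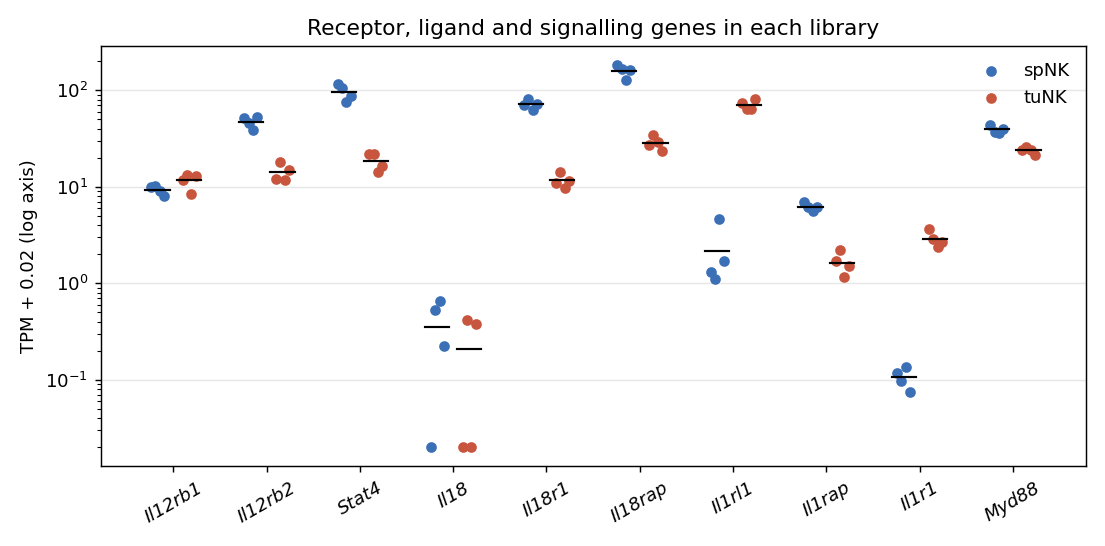
TPM plus 0.02 on a log axis for the 10 genes in the 4 spNK (blue) and 4 tuNK (red) libraries; black lines are group means. Il1rl1 had a mean of 70.8 TPM in tuNK and 2.15 TPM in spNK, Il18rap a mean of 28.7 and 160 TPM, and Il18 was near 0 in all libraries.

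In TPM (transcripts per 1000000, a level per transcript length), spNK libraries were led by Il18rap at 160 ± 22.9 TPM (mean ± SD, n = 4), followed by Stat4 at 96.9 ± 18.8, Il18r1 at 71.8 ± 7.81, Il12rb2 at 47.3 ± 6.51 and Myd88 at 39.3 ± 3.43 TPM. The ranges of Stat4 and Il18r1 overlapped, as did those of Il12rb2 and Myd88. Below them stood Il12rb1 at 9.27 ± 1.02, Il1rap at 6.21 ± 0.558 and Il1rl1 at 2.15 ± 1.63 TPM, with Il18 (0.334 TPM) and Il1r1 (0.0853 TPM) lowest. In tuNK the order was different: Il1rl1 led at 70.8 ± 8.77 TPM, above the highest library of every other gene in the set. Il18rap (28.7 ± 4.60 TPM) came next, and its neighbours down to Il18r1 (11.6 ± 1.90 TPM) overlapped one with the next. Il1r1 (2.86 ± 0.523 TPM), Il1rap (1.62 ± 0.430 TPM) and Il18 (0.188 ± 0.218 TPM) followed without overlap.

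Il12rb2 encodes the signal-transducing chain of the IL-12 receptor, which the IL-23 receptor does not share. Its level was 51.1, 46.2, 38.7 and 53.3 TPM in spNK 1 to 4 and 12.1, 17.9, 11.7 and 14.8 TPM in tuNK 1 to 4. All tuNK values lay below all spNK values. Il12rb2 fell by 1.47 ± 0.16 on the log2 scale (2.78-fold lower, edgeR adjusted p = 1.37e-05), but the leukocyte-scaled value turned to 0.20 and was not called (adjusted p = 0.194). The gene lies on chromosome 6 (67291318 to 67376188).

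Il12rb1, which encodes the chain shared by the IL-12 and IL-23 receptors, stood at 9.87, 10.3, 8.97 and 7.97 TPM in spNK and at 11.8, 13.3, 8.34 and 13.1 TPM in tuNK. The groups overlapped by TPM because tuNK 3 lay within the spNK range, whereas by CPM (22.4 ± 2.48 against 33.3 ± 6.80) they did not. Il12rb1 (chromosome 8, 70808449 to 70821424) rose by 0.57 ± 0.16 (edgeR adjusted p = 0.00685), with a leukocyte-scaled value of 2.25. On log2 of TPM plus 1 the value was 0.28 and was not called (limma adjusted p = 0.139). Without overlap by CPM, tuNK lay above spNK for 34.4% of the genes tested and below for 32.6%, and 3 and 6 genes of the set did so.

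Within a library the ratio of the IL-12 receptor chains does not depend on scaling. The ratio of Il12rb2 to Il12rb1, in TPM plus 0.1, had a geometric mean of 5.05 in spNK and 1.21 in tuNK. On the log2 scale it was 2.36, 2.16, 2.10 and 2.73 in spNK and 0.04, 0.42, 0.48 and 0.18 in tuNK, so every spNK library held several times more Il12rb2 than Il12rb1 and the tuNK libraries held nearly equal levels. The difference was -2.06 ± 0.18 (SE), with a two-sided exact permutation p of 0.0286, the smallest that 70 assignments allow, and an adjusted p of 0.0343 over the 6 ratios compared.

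Stat4, the transcription factor activated by IL-12, stood at 117, 107, 75.4 and 87.7 TPM in spNK and at 21.6, 22.0, 14.4 and 16.2 TPM in tuNK. Every tuNK library was below the lowest spNK library. Stat4 (chromosome 1, 51987148 to 52107189) fell by 2.15 ± 0.15, or 4.42-fold (edgeR adjusted p = 5.94e-07), and remained lower after leukocyte scaling (-0.45 ± 0.13, adjusted p = 0.00697). Of the 32 scaling genes themselves, 8 were called lower and 10 higher after that scaling, with values from -1.4 (Itgb2) to 1.17 (Ptpn22). The leukocyte-scaled values of Stat4, Il18r1 and Il18rap lie within that range.

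The IL-18 receptor genes had the most negative log2 fold changes of the set, although their differences from Stat4 were not tested. Il18r1, the ligand-binding chain, stood at 71.2, 81.7, 62.6 and 71.8 TPM in spNK and at 10.9, 14.2, 9.77 and 11.5 TPM in tuNK. It fell by 2.40 ± 0.14 (5.27-fold lower, edgeR adjusted p = 1.18e-07; leukocyte-scaled -0.71, adjusted p = 1.19e-04). Il18rap, the accessory chain, stood at 183, 166, 129 and 164 TPM in spNK and at 27.4, 34.6, 29.1 and 23.6 TPM in tuNK. These groups were also fully apart, and Il18rap fell by 2.25 ± 0.13 (4.74-fold lower, edgeR adjusted p = 1.59e-07; leukocyte-scaled -0.54, adjusted p = 0.00642). NK cell markers moved with Stat4, Il18r1 and Il18rap: all 14 listed were lower, and after leukocyte scaling 6 stayed lower, 2 were higher and 6 were not called. After that scaling the 6 that stayed lower were Nkg7 (-0.49), Ncr1 (-0.54), Eomes (-0.81), Klrb1c (-1.01), Tbx21 (-1.46) and Itga2 (-2.01). The 2 higher were Il2rb (0.42) and Prf1 (0.33), and the 6 not called ran from -0.19 (Klre1) to 0.2 (Cd244). The part of the NK cell markers in the lower receptor levels was not tested.

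The balance of the IL-18 receptor chains was not shown to differ. The log2 ratio of Il18rap to Il18r1 was 1.15 ± 0.16 in spNK and 1.30 ± 0.22 in tuNK (SD, n = 4), with overlapping groups and an exact permutation p of 0.343. Its difference of 0.15 ± 0.14 (SE) compares with 2.06 in size for the IL-12 receptor pair, although the 2 differences were not tested against each other. The ratio of Il12rb2 to Il18r1 moved from a mean log2 of -0.61 to 0.27 (difference 0.88 ± 0.10, exact permutation p = 0.0286, adjusted p = 0.0343). Il12rb2 thus went from below Il18r1 in all 4 spNK libraries to above it in all 4 tuNK libraries.

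Il18 itself, the ligand, had 0 to 14 counts per library. It was at 0 in spNK 1, tuNK 1 and tuNK 3, which allows up to 0.0698, 0.0776 and 0.0762 CPM (3 counts, counting error only), and no difference was detectable at this depth.

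**Figure D2:**
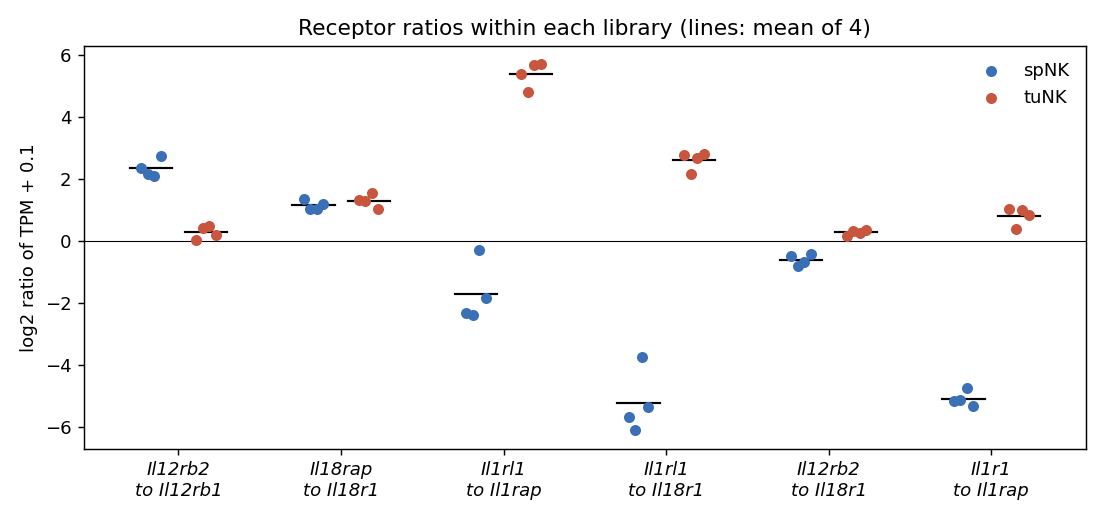
Log2 ratio of TPM plus 0.1 for 6 gene pairs in each library, spNK in blue and tuNK in red, with lines at the means of 4. The groups are apart for every pair except Il18rap to Il18r1, where means are 1.15 and 1.30.

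Il1rl1, which encodes the IL-33 receptor ST2, moved the other way. It stood at 1.29, 1.09, 4.56 and 1.66 TPM in spNK and at 74.5, 63.4, 63.8 and 81.4 TPM in tuNK. The lowest tuNK library was far above the highest spNK library, spNK 3. Il1rl1 rose by 4.96 ± 0.43 on the log2 scale, or 31.0-fold (edgeR adjusted p = 1.3e-05; leukocyte-scaled 6.59), and by 5.53 without spNK 3.

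Il1r1, the signalling receptor for IL-1α and IL-1β, was barely detected in spNK, at 0.0960, 0.0758, 0.115 and 0.0545 TPM (10 to 24 counts). In tuNK it stood at 3.59, 2.82, 2.36 and 2.67 TPM. It rose by 5.29 ± 0.27 (39-fold, edgeR adjusted p = 5.43e-08; leukocyte-scaled 6.97), to a level that stayed low per length. With an offset of 1 TPM, which shrinks low values, the log2 difference was 1.82.

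Il1rap, the accessory chain that both ST2 and the IL-1 receptor need, did not rise with them. It stood at 6.96, 6.08, 5.61 and 6.17 TPM in spNK and at 1.69, 2.16, 1.14 and 1.47 TPM in tuNK. It fell by 1.86 ± 0.13 (3.64-fold lower, edgeR adjusted p = 5.84e-07), and after leukocyte scaling it was at -0.16 and not called (adjusted p = 0.401). It lies on chromosome 16 (26581704 to 26730117).

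The ratio of receptor to accessory chain RNA in the libraries therefore turned over. These are ratios of bulk libraries, and whether the RNAs of a pair came from the same cells was not tested. The ratio of Il1rl1 to Il1rap had a geometric mean of 0.305 in spNK and 42.1 in tuNK. The log2 values ran from -2.38 to -0.29 in spNK and from 4.81 to 5.70 in tuNK, a difference of 7.11 ± 0.53 (exact permutation p = 0.0286, adjusted p = 0.0343). The ratio of Il1r1 to Il1rap went from a geometric mean of 0.0292 to 1.75 (log2 difference 5.90 ± 0.20, with the same p-values). The ratio of Il1rl1 to its neighbour Il18r1 had a mean log2 of -5.22 in spNK and 2.60 in tuNK (difference 7.82 ± 0.54, same p-values). At the transcript level Il18r1 exceeded Il1rl1 in every spNK library and the reverse held in every tuNK library.

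Myd88, the adaptor shared by the IL-1 family receptors, stood at 44.0, 37.2, 36.3 and 39.6 TPM in spNK and at 23.8, 25.9, 23.9 and 21.4 TPM in tuNK, without overlap. It fell by 0.47 ± 0.10 (1.39-fold lower, edgeR adjusted p = 0.00127), but was higher after leukocyte scaling (1.22, adjusted p = 7.46e-06). The gene lies on chromosome 9 (119335934 to 119341411).

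**Figure D3:**
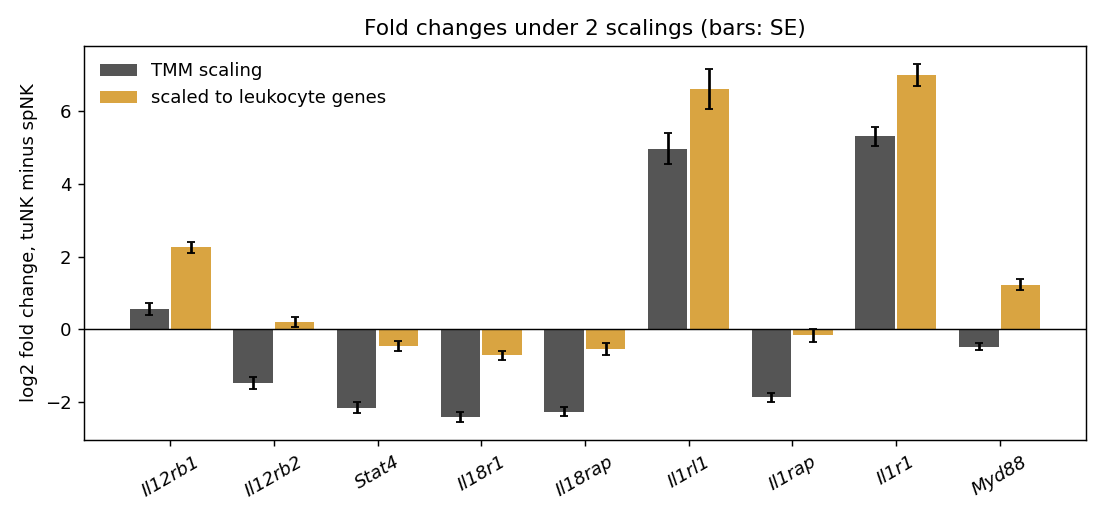
Log2 fold change (tuNK minus spNK) of the 9 tested genes with TMM scaling (grey) and scaled to 32 leukocyte genes (yellow); bars are standard errors. Il1rl1 (4.96 and 6.59) and Il1r1 (5.29 and 6.97) are high under both, Stat4, Il18r1 and Il18rap are below 0 under both, and Il12rb2 and Myd88 change sign.

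RNA of cell types known to carry ST2 was followed beside Il1rl1. Mast cell and basophil markers (10 genes) summed to 64.3 to 153 CPM in spNK, highest in spNK 3, and to 13.5 to 26.3 CPM in tuNK, where 0 of 7 tested were higher and 5 were lower. Of these, Fcer1a and Mcpt4 were at 0 in tuNK and Cpa3 had a mean of 0.316 CPM, whereas Kit (12.5 CPM) and Gata2 (3.88 CPM, not called) remained detected. The tryptase gene Tpsab1 was at 0 in spNK and at 0.31 and 0.306 CPM in tuNK 1 and 4. After leukocyte scaling 0 of the 7 tested were higher, 4 lower and 3 not called, beside 78.5% higher and 6.32% lower among all genes. Markers of group 2 innate lymphoid cells (9 genes) summed to 54.3 to 83.2 CPM in spNK and 14.3 to 29.3 CPM in tuNK. Of these, Il5, Il17rb and Il4 were at 0 in tuNK, and Gata3, a factor that these cells need, fell by 2.45, while Icos was called higher (1.04) with overlapping groups. After leukocyte scaling 1 of the 3 tested was higher, 1 lower and 1 not called, with a median of -0.45 (1.71 for all genes). Regulatory T cell markers (6 genes) summed to 6.93 to 10.9 CPM and 9.53 to 27.3 CPM, with 2 of 4 tested higher and 2 lower. The higher ones were Ctla4 (log2 fold change 7.93, from 0.064 to 14.98 CPM) and Il2ra (1.82), and the lower ones were Cd4 (-3.51) and Ikzf2 (-0.90, higher after leukocyte scaling). After that scaling 3 of the 4 were higher and 1 lower. Foxp3 was at 0 in spNK and had a mean of 0.0944 CPM in tuNK, and Cd3e was at 0 in tuNK. Il1rl1 itself was at 204 ± 27.7 CPM there (SD, n = 4). The mesenchymal markers that moved with it were led by Col1a2 (1.42 CPM in spNK, 1860 CPM in tuNK), Fn1 (8.98 and 620 CPM, with 33.6 CPM in spNK 3) and Sparc (1.34 and 411 CPM), and their part in the rise of Il1rl1 and Il1r1 was not tested. The part of epithelial tumour cell RNA, higher in tuNK for Krt18 (1.63 and 31.2 CPM) but not called for Epcam and Cdh1, was not tested either. In spNK 3, the library with the most Il1rl1 of its group (4.56 TPM), the basophil protease gene Mcpt8 was at 17.5 CPM against 0.266 to 2.49 CPM in the other spNK libraries. Summed markers of B cells, macrophages, dendritic cells, epithelial and mesenchymal tumour cells were also highest there within its group.

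The deposited tables also bear on which form of Il1rl1 RNA was present. In each library a gene's estimated count divided by its TPM is proportional to the mean length of its transcripts, weighted by abundance, less an offset. The fitted offset was 203 to 212 nt. This was calibrated in each library on 863 genes that have a single annotated transcript, of which 85.9 to 86.0% came out within 2% of their annotated length. The measure was chosen after the values had been seen. GENCODE M21 annotates Il1rl1 transcripts of 5302 and 5053 nt with 567 codons, transcripts of 2661 and 1216 nt with 337 codons, and a fragment of 375 nt. Short transcripts were left out of the calibration, and the 375 nt fragment lies below its range. The forms of 567 codons carry the exons of the membrane receptor, and those of 337 codons end earlier, as the soluble receptor does.

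The mean Il1rl1 transcript length was 4153, 3738, 3298 and 3675 nt in spNK 1 to 4 and 2984, 2835, 2882 and 2836 nt in tuNK 1 to 4. The tuNK values lay just above the 2661 nt transcript and far below the membrane forms, and did not overlap with spNK. The log2 difference was -0.36 ± 0.07, which did not pass the threshold over 11223 genes (limma adjusted p = 0.111), and without spNK 3 it did (-0.42, adjusted p = 0.0426). In that fit 0.57% of genes were called shorter and 0.383% longer in tuNK. If only the transcripts of 2661 and 5302 nt were present, the long one would make up 6.6 to 12.2% of Il1rl1 molecules in tuNK and 24.1 to 56.5% in spNK. If the rest were the 375 nt fragment, the 5053 nt form could reach 52.6 to 55.8% in tuNK. The gene tables do not separate these cases, and the annotation the authors used is not given in the sources used here.

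**Figure D4:**
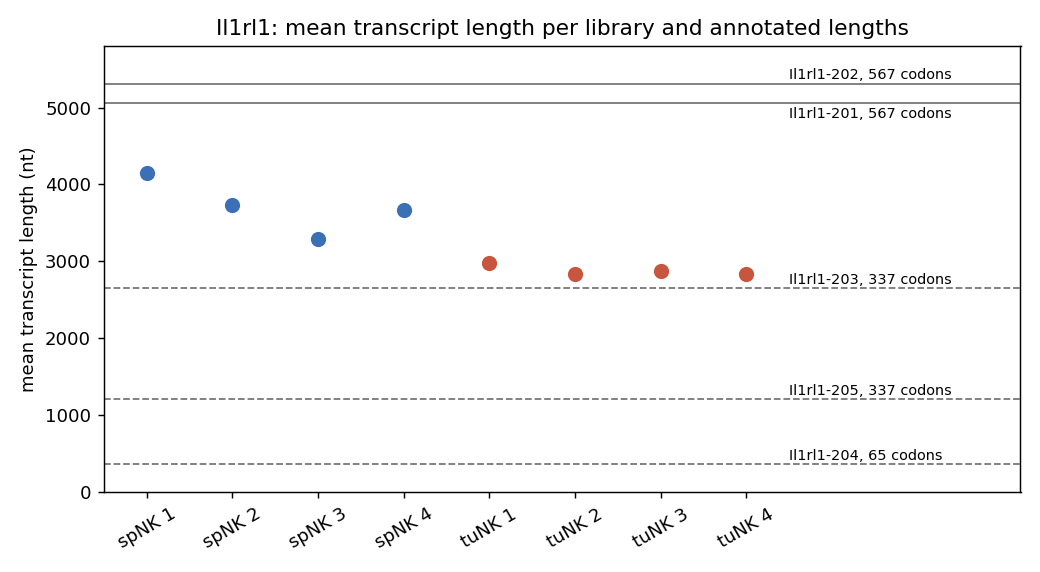
Mean length (nt) of Il1rl1 transcripts in each library, spNK in blue and tuNK in red, with lines at the annotated transcripts (solid for 567 codons, dashed for shorter forms). The 4 tuNK libraries sit between 2835 and 2984 nt, near the 2661 nt transcript, and the spNK libraries between 3298 and 4153 nt.

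Like Il1rl1 in the fit of all 8 libraries, the other 8 genes of the set with a length were not called. Il12rb2 differed by little, at 2821 to 2834 nt in spNK and 2843 to 2866 nt in tuNK without overlap (limma adjusted p = 0.155). Il12rb1 came out at 2873 nt and Il1r1 at 4832 nt in all 8 libraries, each the length of a single annotated transcript. For Il1r1 that transcript is the one that starts at the internal promoter printed above, 40266586. Il18r1 averaged 3524 nt in spNK and 3486 nt in tuNK, and Il18rap 4762 and 4739 nt, with overlapping groups. Il1rap varied more in tuNK (2925 to 4509 nt, on 216 to 272 counts) and was not called (limma adjusted p = 1).

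Along chromosome 1 the direction changed between Il1rl1 and Il18r1, whose annotated spans lie 136 bases apart. Single transcripts can lie further apart than these spans. The 2661 nt Il1rl1 transcript ends at 40448148, and the Il18r1 transcripts of 537 codons start at 40466006. Whether both genes were read in the same cells was not tested. Il1r1 and Il1rl1 rose, and Il18r1 and Il18rap, which follow directly downstream of Il1rl1 on the same strand, fell. Between Il1r1 and Il1rl1 lies Il1rl2, which encodes the receptor for IL-36. It rose by 0.81 ± 0.24 (edgeR adjusted p = 0.0105), from 2.92 ± 0.361 to 5.14 ± 0.811 CPM, and was not called on log2 of TPM plus 1 (0.13). Upstream, the decoy receptor gene Il1r2 had at most 7 counts in any library and was not tested. Downstream, Slc9a4 had 0 counts, and Slc9a2 (0.55 ± 0.71) and Mfsd9 (0.08 ± 0.28) were not called. Among 12 genes listed as neighbours of the set, 8 were tested, of which 3 were lower (Acaa1a -0.73, Nab1 -0.38, Map4k4 -0.35, all higher after leukocyte scaling), with a median of -0.13 against 0.02 for all genes. Of all genes tested, 34% were lower.

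**Figure D5:**
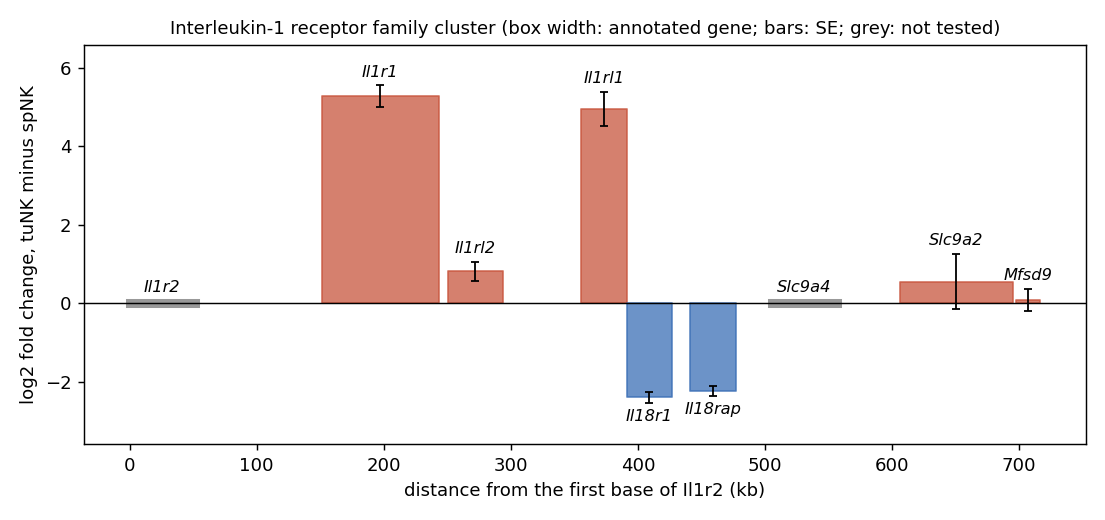
Log2 fold change (tuNK minus spNK, bars are standard errors) of genes along the IL-1 receptor family cluster, placed by distance in kb from the first base of Il1r2; box width is the annotated gene, and grey genes were not tested. Il1rl1 (4.96) and Il18r1 (-2.40) are adjacent and lie on opposite sides of 0, also after leukocyte scaling (6.59 and -0.71).

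One list joined ligands and soluble inhibitors of the family with 4 inflammasome genes (Casp1, Pycard, Gsdmd and Nlrp3). Of its 18 genes 17 were in the tables and 9 were tested, the 4 inflammasome genes included, with 4 higher, 3 lower and a median of 0.35 (leukocyte-scaled 2.04). For all genes these medians were 0.02 and 1.71, with 35.6% called higher and 34% lower before that scaling. Il33, the ligand of ST2, had 4, 0, 0 and 0 counts in spNK and 139, 91, 47 and 92 in tuNK. Those counts, at 0.0233 against 2.31 CPM, give a ratio of 111 (95% exact binomial interval 42.9 to 409, counting error only). Il33 and the gene of its receptor were thus both higher in tuNK, and the mesenchymal markers were higher in the same libraries.

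Il18bp, which encodes the soluble protein that neutralises IL-18, stood at 0.465, 0.940, 0.428 and 0.611 CPM in spNK and at 5.04, 4.54, 0.686 and 3.57 CPM in tuNK. It was called higher (2.49 ± 0.59, edgeR adjusted p = 0.00297), although tuNK 3 lay within the spNK range. Ebi3, a subunit of IL-27 and IL-35, fell from 2.62 to 0.177 CPM (-3.87 ± 0.66, adjusted p = 3.38e-04). Il12b, the shared subunit of IL-12 and IL-23, fell from 0.596 to 0.0831 CPM (-2.82 ± 1.12, adjusted p = 0.0435) but lost its call after leukocyte scaling, without a filter, and without any 1 of spNK 1, 2 or 4 or tuNK 1, 2 or 3 (edgeR adjusted p from 0.0587 to 0.121). Il1b, at 1.43 and 1.35 CPM, was not called (-0.08; leukocyte-scaled 1.64 and called).

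The 4 inflammasome genes of that list, which act in the processing or release of IL-1β and IL-18, did not move together. The adaptor gene Pycard fell by 1.88 ± 0.18, from 96.6 to 26.2 CPM (edgeR adjusted p = 7.51e-06; leukocyte-scaled -0.20, not called), and the sensor gene Nlrp3 rose from 0.203 to 3.10 CPM (3.92 ± 0.85, adjusted p = 0.00175). The protease gene Casp1 was not called (0.35, adjusted p = 0.0946; without tuNK 3 called at 0.44; leukocyte-scaled 2.04 and called). Gsdmd, the pore-forming substrate of caspase-1, was called higher by a small margin (0.38 ± 0.12, adjusted p = 0.0121), lost on log2 TPM, with library size alone and without tuNK 2 (adjusted p = 0.0514).

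Of 9 related receptor genes 5 were tested, and 4 were higher and 1 lower, with a median of 0.94 (leukocyte-scaled 2.65). For all genes these medians were 0.02 and 1.71, with 35.6% called higher and 34% lower before that scaling. Sigirr, an inhibitory member of the IL-1 receptor family, rose from 44.9 ± 4.16 to 86.3 ± 5.70 CPM (0.94 ± 0.09, edgeR adjusted p = 6.04e-06), with tuNK values of 80.7, 87.1, 93.9 and 83.4 CPM all above the spNK values. Il6st, the shared chain gp130, rose by 3.01 ± 0.18 (8.07 to 65.2 CPM), and Il6ra by 2.36 ± 0.76, the latter not called without spNK 4 (adjusted p = 0.053). Il27ra fell by 1.2 ± 0.12, but was higher by 0.49 after leukocyte scaling.

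Janus kinase and STAT genes were mostly lower. Of 16 tested 9 were lower, 3 higher and 4 not called, with a median of -0.60 against 0.02 for all genes. After leukocyte scaling 13 were higher, 2 lower and the median was 1.10, beside 78.5% higher and a median of 1.71 for all genes. Tyk2, the kinase of the IL-12Rβ1 chain, fell by 2.19 ± 0.11 (162 ± 16.8 to 35.4 ± 3.84 CPM, edgeR adjusted p = 4.95e-08), and Jak1 fell by 2.21 ± 0.14. These were the 2 that stayed lower after leukocyte scaling, at -0.50 and -0.51. Jak2, the kinase of the IL-12Rβ2 chain, named after its values were seen, fell by 1.08 ± 0.11 but turned to 0.61 after that scaling. Stat5a and Stat5b fell by 2.0 and 1.16, with leukocyte-scaled values of -0.30 (not called) and 0.52. Socs1, a feedback inhibitor of JAK signalling, rose by 1.67 ± 0.15, from 10.6 to 33.7 CPM.

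Of 32 genes listed for signalling from MyD88 to NF-κB and MAP kinases, inhibitors included, 15 were lower, 5 higher and 12 not called. Their median was -0.26, beside 34% lower, 35.6% higher and a median of 0.02 for all genes. After leukocyte scaling 29 were higher, 2 lower and the median was 1.45, beside 78.5% higher and a median of 1.71 for all genes. The 2 that stayed lower were Traf6, the ubiquitin ligase downstream of MyD88 (-2.05 ± 0.14, edgeR adjusted p = 4.72e-07; leukocyte-scaled -0.36), and Peli1, a ligase that acts with the IRAK kinases (-2.33 ± 0.14; leukocyte-scaled -0.64). Tab2 and Cyld fell by 1.17 and 0.67, and both turned higher after that scaling (0.52 and 1.03). Nfkb2, a subunit gene of the non-canonical NF-κB pathway, rose from 61.3 ± 5.04 to 410 ± 49.8 CPM (2.74 ± 0.11, edgeR adjusted p = 1.25e-08), with no overlap between groups.

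Response genes of IL-12 and IL-18 in NK cells moved in both directions. Of 21 tested 9 were higher, 5 lower and 7 not called, with a median of -0.05 (17 higher, 1 lower and a median of 1.64 after leukocyte scaling). Among all genes 35.6% were higher and 34% lower, and 78.5% were higher after that scaling, with a median of 1.71. Tbx21, the factor T-bet, fell by 3.15 ± 0.18 (505 to 56.8 CPM; leukocyte-scaled -1.46), the single gene of the list lower under both scalings. Ccl3 and Batf fell by 1.74 and 1.54, with leukocyte-scaled values of -0.03 and 0.14, neither called. Cd69, an activation marker, rose by 1.59 ± 0.15, and Gadd45g, an IL-12 and IL-18 induced activator of MAP kinases, by 2.06 ± 0.24. Ifng, named after its values were seen, stood at 26.9, 20.5, 12.0 and 21.9 CPM in spNK and 18.4, 20.6, 15.6 and 12.3 CPM in tuNK. It was not called (-0.28, edgeR adjusted p = 0.317), was called lower without spNK 3 (-0.48, adjusted p = 0.0386), and was higher after leukocyte scaling (1.44).

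Genes with the pattern most like 3 of the receptors were ranked by Pearson's correlation of log2 CPM over the 8 libraries, among 8461 genes with a mean of at least 10 CPM over all 8. All libraries enter each value, so the coefficients mostly reflect the separation of the groups, and 67, 353 and 162 genes exceeded 0.99 for Il12rb2, Il18r1 and Il1rl1. For Il12rb2 they were Scimp (0.997), Cd53 (0.997) and Evi2b (0.996), genes of leukocytes. For Il18r1 they were Fyn (0.999), a kinase of lymphocyte signalling, Apbb1ip (0.999) and Ptprcap (0.999), which encodes a CD45-associated protein. For Il1rl1 they were Tinagl1 (0.998), Map1b (0.998) and Crip2 (0.998), which met the level required only through tuNK, where they are high, so a high coefficient with Il1rl1 was built into the choice. Tinagl1, which encodes a matrix protein, had means of 1.92 ± 1.75 CPM for spNK and 237 ± 27.3 CPM for tuNK (SD, n = 4). Map1b, a microtubule protein gene, had 3 counts in spNK and 3331 in tuNK.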

How the data were processed

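RNA of sorted NK cells was sequenced in 8 libraries, grouped by title into 4 spNK and 4 tuNK. The submitters' processing notes name FastQC 0.11.9, STAR, Salmon and GRCm38. Versions of STAR and Salmon and how strand was set are not stated there. The authors deposited estimated counts per gene (expected counts, of which 7.9 to 8.82% were not whole) and TPM, each library summing to 1000000. Gene positions and transcript lengths are from GENCODE M21 (45143 of 45706 identifiers matched). Reads of overlapping or neighbouring transcripts may be shared by the quantification.

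Counts were rounded, filtered with filterByExpr, scaled with TMM and tested with edgeR 4.0.16 (quasi-likelihood, robust, R 4.3.3), adjusted over all 14006 genes with a threshold of 0.05. Mean transcript lengths (at least 10 counts in every library) were tested with limma 3.58.1. Scripts were tested on simulated data. Of 265 list entries, 264 matched the tables. Alternatives were other scalings, filters, DESeq2 1.42.0, limma, log2 TPM with offsets of 1 and 0.1, the replicate block, and leaving out libraries. Named were all 10 genes of the set, up to 5 called genes with the smallest adjusted p of each pathway list, every tested ligand, inhibitor and related receptor, and the 3 genes most correlated with Il12rb2, Il18r1 and Il1rl1. The value of 1 neighbouring gene is not reported here. The genes and lists were chosen with earlier results of these data known.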

Additional observations from a re-analysis of the deposited data

Results flagged for a closer look

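Of 34 groups of 4 values checked for a value far from the others (levels, ratios and Il1rl1 lengths), 1 stood out, where chance gives about 1 in 20. Il1rl1 was at 4.56 TPM in spNK 3 against 1.09 to 1.66 TPM in the other spNK libraries, a gap of 0.834 of the group's range (the critical value for 4 samples is 0.829). The same library had the most mast cell and basophil marker RNA of its group (153 CPM against 64.3 to 87 CPM), and also the most of its group for markers of B cells (1700 against 400 to 1200 CPM), macrophages (545 against 316 to 391 CPM), dendritic cells (442 against 184 to 313 CPM), epithelial tumour cells (10 against 1.22 to 2.63 CPM) and mesenchymal cells (161 against 96.8 to 136 CPM). Of the mesenchymal sum in spNK 3, Thy1 gave 105 CPM and Fn1 gave 33.6 CPM. The part of any of these marker sums in the Il1rl1 value was not tested. Without spNK 3 the log2 fold change of Il1rl1 was 5.53.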

How the results depend on the processing

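Under 19 alternatives other than leukocyte scaling, the 9 tested genes kept their direction and call, except Il12rb1 on log2 TPM (0.28 and 0.31, not called). Leukocyte scaling gave 10989 higher and 885 lower genes, and 3 lower genes of the set. Its reversed values were 0.20 for Il12rb2, 1.22 for Myd88, 0.61 for Jak2, 0.52 for Stat5b and Tab2, 1.03 for Cyld, 0.14 for Batf, 1.64 for Il1b, 1.44 for Ifng, 0.49 for Il27ra, 0.98 for Acaa1a, 1.33 for Nab1, 1.35 for Map4k4, 0.43 for Cd53 and 0.06 for Evi2b. Its counts were 1 lower ligand or inhibitor, 0 lower related receptors, 13 higher and 2 lower Janus kinase and STAT genes, 29 and 2 from MyD88 to NF-κB, 17 and 1 response genes, and 7 and 0 neighbours. These shifts follow from the construction of the scaling, which raises every tuNK value.

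Whether the replicate numbers pair the libraries is not settled by these data. Same-numbered deviations correlated at -0.008, 0.034, 0.015 and 0.022, and the other combinations at -0.047 to 0.028. Correlations this near 0 cannot show whether same-numbered libraries share a mouse. With the replicate block 9555 genes were called in place of 9744, and Casp1 was called (0.36). A sign-flip test over the 4 numbered pairs cannot go below 0.125, and the ratio differences of -2.06, 7.11, 7.82, 0.88 and 5.90 had an adjusted p of 0.15 there. Without 1 library these ratios also cannot pass (adjusted p = 0.0686) and ran from -2.14 to -1.93 (Il12rb2 to Il12rb1), 6.88 to 7.58 (Il1rl1 to Il1rap), 7.53 to 8.32 (Il1rl1 to Il18r1), 0.81 to 0.94 (Il12rb2 to Il18r1) and 5.82 to 6.05 (Il1r1 to Il1rap). The Il1rl1 length difference ran from -0.42 (without spNK 3) to -0.31. Depth limits Il18 and the ligands, most of which had few counts.

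Without both spNK 3 and tuNK 1, chosen after marker levels had been seen, 9657 genes were called, 4962 higher and 4695 lower, and the set kept 3 higher and 6 lower.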
